A study of Mus musculus with 17 samples.

Results

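This section describes 10 macrophage and monocyte genes in mouse colorectal tumors of 4 Tyk2 genotypes, out of 55421 gene rows counted per library. The genes were taken by name. Of these, 8 mark the lineage (Csf1r, Adgre1, Cd68, Aif1, Lyz2, Mrc1, Cd163 and Cx3cr1) and the other 2, Fcgr1 and Fcgr4, encode Fc gamma receptors known to respond to interferons. The question was whether the interferon-sensitive pair followed the lineage genes when Tyk2 was deleted in the whole animal or in the intestinal epithelium.

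All mice were on a C57BL/6 background and carried colon tumors induced with the mutagen azoxymethane (AOM) and the colitis-inducing agent dextran sulfate sodium (DSS). Tumors came from Tyk2Δ/Δ mice (labelled Tyk2KO, 3 libraries), which carry a germline deletion obtained with a CMV-cre deleter, and from their Tyk2+/+ controls (Tyk2wt, 3 libraries). They also came from Tyk2ΔIEC mice (Tyk2DIEC, 4 libraries), which lose Tyk2 where Villin-cre is active, the intestinal epithelium, and from cre-negative Tyk2fl/fl controls (Tyk2fl, 7 libraries). Macrophages of Tyk2ΔIEC tumors therefore keep an intact Tyk2 locus, while those of Tyk2Δ/Δ tumors do not. The labels do not say whether libraries of a genotype came from different animals, so p-values measure the spread between libraries, and the age of the mice is not given in the sources used here.

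Tyk2 is a Janus kinase that passes on signals of type I interferons and of interleukin-12 and interleukin-23, and interleukin-12 drives T and NK cells to make interferon gamma. Macrophages of the colon are replaced steadily by blood monocytes and depend on CSF1, whose receptor is the product of Csf1r. Interferon gamma activates macrophages, and the genes of the high-affinity receptor FcγRI (Fcgr1) and of the activating receptor FcγRIV (Fcgr4) are among those it can induce. Adgre1 (F4/80), Cd68 (a lysosomal glycoprotein), Aif1 (the calcium-binding protein Iba1) and Lyz2 (lysozyme of myeloid cells) serve as general macrophage markers. Mrc1 (mannose receptor) and Cd163 (receptor for hemoglobin and haptoglobin) mark resident or alternatively activated cells, and Cx3cr1 is the fractalkine receptor of monocytes and intestinal macrophages.

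The start sites of Fcgr1 and Fcgr4 are shown with those of a pair of lineage genes so that their interferon motifs can be compared. RefSeq windows on GRCm38.p6 (250 bases before and 50 after the start) were used for 8 of the 10 genes. The windows were searched on both strands for the gamma-activated sequence of interferon gamma genes (GAS, TTCNNNGAA), the interferon-stimulated response element (ISRE, read here as GAAA, any 2 bases, GAAA) and the core of PU.1 sites (GAGGAA). PU.1, encoded by Spi1, is the main transcription factor of the macrophage lineage. Fcgr1 lies on chr3:96282909-96293969 and its window is chr3:96293920-96294219 on the minus strand. Fcgr4 lies on chr1:171018920-171029761 and its window is chr1:171018676-171018975 on the plus strand. Aif1 is shown as the lineage gene that fell in both deletions (chr17:35170991-35176068, window chr17:35176003-35176302, minus strand). Mrc1 is shown for comparison (chr2:14229392-14332057, window chr2:14229164-14229463, plus strand). Capitals mark the motif matches.
Fcgr1: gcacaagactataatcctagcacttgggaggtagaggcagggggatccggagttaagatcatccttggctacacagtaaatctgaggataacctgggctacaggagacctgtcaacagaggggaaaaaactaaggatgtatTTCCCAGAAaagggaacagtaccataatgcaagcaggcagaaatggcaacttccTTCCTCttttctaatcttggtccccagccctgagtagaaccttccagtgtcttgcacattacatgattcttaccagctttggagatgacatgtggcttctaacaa
Fcgr4: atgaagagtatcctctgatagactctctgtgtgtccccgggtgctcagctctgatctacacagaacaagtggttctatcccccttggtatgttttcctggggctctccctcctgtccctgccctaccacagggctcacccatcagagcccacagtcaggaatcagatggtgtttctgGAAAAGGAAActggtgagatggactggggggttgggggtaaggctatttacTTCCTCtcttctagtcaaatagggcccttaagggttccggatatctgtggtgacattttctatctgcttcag
Aif1: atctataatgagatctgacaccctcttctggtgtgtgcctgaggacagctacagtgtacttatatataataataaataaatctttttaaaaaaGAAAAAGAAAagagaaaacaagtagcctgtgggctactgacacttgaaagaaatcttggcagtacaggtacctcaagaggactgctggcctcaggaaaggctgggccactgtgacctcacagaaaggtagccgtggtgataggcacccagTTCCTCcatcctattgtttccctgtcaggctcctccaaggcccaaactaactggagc
Mrc1: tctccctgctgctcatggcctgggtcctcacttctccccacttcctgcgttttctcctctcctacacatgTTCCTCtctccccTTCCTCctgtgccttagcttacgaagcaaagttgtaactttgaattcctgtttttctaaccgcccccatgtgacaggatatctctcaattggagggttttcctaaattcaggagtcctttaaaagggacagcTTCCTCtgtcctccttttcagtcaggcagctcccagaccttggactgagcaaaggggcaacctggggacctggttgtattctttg
The capitals are a GAS match in Fcgr1, which starts 109 bases before the start site, an ISRE match in Fcgr4 (73 bases before) and in Aif1 (157 bases before), and PU.1 cores in all 4 windows. The GAS letters were found in 1 of the 8 windows, against 8.3% of 32851 promoter windows, and the ISRE letters in 2 of the 8, against 3.44%. The PU.1 core was found in 5 of the 8 windows (Fcgr1, Fcgr4, Aif1, Mrc1 and Cd68), against 28.3% of all. The windows of Lyz2, Cd163 and Cx3cr1 held none of the 3. These are matches of letters and not measured binding, and the windows printed were chosen with the expression values known.

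The libraries held between 19129696 and 35427965 counts in genes, and the Tyk2fl/fl libraries were the deepest. Markers of colon epithelium such as Epcam were high in all groups, with summed levels of 8945 to 9538 CPM (gene counts scaled to a common library size) in Tyk2Δ/Δ, 8238 to 10043 CPM in Tyk2+/+, 7823 to 10323 CPM in Tyk2ΔIEC and 6940 to 11294 CPM in Tyk2fl/fl tumors. Tyk2 itself had 58.1 to 59.1 CPM in Tyk2Δ/Δ and 55.5 to 57.7 CPM in Tyk2+/+ tumors. It had 51.8 to 55.8 CPM in Tyk2ΔIEC and 42.5 to 54.2 CPM in Tyk2fl/fl tumors. A gene count sums over all exons and does not check a deletion of part of the gene. The study looked at the deleted exon 3 and reported its reads missing from Tyk2Δ/Δ and most, but not all, Tyk2ΔIEC tumors. Tyk2fl/fl replicates 1 to 3 stood apart from the rest by their Xist counts, 40656 to 45446 against 2 to 106 in the 14 other libraries. Values without these 3 are given where they bear on a result.

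Of the 10 genes, 9 were detected in every library. Per kilobase of exon, Lyz2 was the most abundant, with group means of 234 to 335 CPM per kb. Cd68 followed with 11.0 to 13.8 CPM per kb, and Csf1r had 6.57 to 7.33 CPM per kb. Mrc1, Cx3cr1 and Adgre1 lay between 3.42 and 5.10 CPM per kb. Fcgr4 spanned these levels, with group means of 2.21 to 6.08 CPM per kb, and Fcgr1 was lower, with 1.57 to 2.74 CPM per kb. Cd163 was at the limit of detection, with 0 to 1 count in Tyk2Δ/Δ, 0 to 3 counts in Tyk2+/+, 0 to 2 counts in Tyk2ΔIEC and 0 to 6 counts in Tyk2fl/fl libraries. It did not pass the filter on low counts and was not tested, and a difference in it was not detectable at this depth.

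In tumors of Tyk2Δ/Δ mice, Fcgr4 was the member that fell most. Fcgr4 had 2.54, 2.53 and 3.24 CPM in the 3 Tyk2Δ/Δ libraries, against 7.29, 7.44 and 8.19 CPM in the 3 Tyk2+/+ libraries. All Tyk2Δ/Δ values were below all Tyk2+/+ values. The log2 fold change was −1.46 ± 0.17 (SE, n = 3 each), which is 2.76-fold lower, with an adjusted p of 0.00531 (edgeR quasi-likelihood test, 2-sided, Benjamini-Hochberg over 16179 genes). The counts behind these values were 51 to 69 in Tyk2Δ/Δ and 145 to 170 in Tyk2+/+ libraries.

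Fcgr1 was also lower in every Tyk2Δ/Δ library, but its change did not pass the threshold. It had 4.07, 3.57 and 4.56 CPM in Tyk2Δ/Δ tumors, against 8.34, 6.78 and 6.16 CPM in Tyk2+/+ tumors. The groups did not overlap, and the log2 fold change was −0.81 ± 0.18 (SE, n = 3 each; edgeR adjusted p = 0.0587). The call depended on the method, since Fcgr1 passed with DESeq2 (adjusted p = 0.00749), without the low-count filter (0.0251) and when all 17 libraries were fitted together (0.0409).

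Among the lineage genes Aif1 fell. Aif1 had 9.48, 8.39 and 10.7 CPM in Tyk2Δ/Δ tumors, against 17.02, 14.8 and 14.97 CPM in Tyk2+/+ tumors. The groups did not overlap, and the log2 fold change was −0.72 ± 0.13 (SE, n = 3 each; edgeR adjusted p = 0.0308). This call was lost without Tyk2Δ/Δ replicate 1 (adjusted p = 0.0862), Tyk2Δ/Δ replicate 2 (0.125), Tyk2+/+ replicate 1 (0.0633) or Tyk2+/+ replicate 3 (0.0995), and in the fit of all 17 libraries (0.0902), with log2 fold changes of −0.63 to −0.75.

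The receptor gene Csf1r, on which the lineage depends, had 34.4, 38.2 and 41.3 CPM in Tyk2Δ/Δ libraries and 40.5, 49.8 and 33.0 CPM in Tyk2+/+ libraries. The groups overlapped fully, with a log2 fold change of −0.12 ± 0.14 (SE; edgeR adjusted p = 0.653). Adgre1 (−0.18 ± 0.18), Cd68 (−0.15 ± 0.16) and Cx3cr1 (−0.07 ± 0.17) had log2 fold changes no larger than about 1 standard error. Lyz2 (−0.35 ± 0.24) and Mrc1 (−0.30 ± 0.18) were lower on average but overlapped between the groups, with Lyz2 at 264 to 363 CPM in Tyk2Δ/Δ and 268 to 542 CPM in Tyk2+/+ tumors. These 6 genes had edgeR adjusted p-values of 0.367 to 0.838. Lyz2 shares 5.96% of its words of 75 bases, the read length, with its neighbor Lyz1, and the exons of Csf1r overlap the antisense gene Hmgxb3 over 15.1% of their length, so both carry some uncertainty of counting.

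Thus 2 of the 9 tested members fell in Tyk2Δ/Δ tumors (Fcgr4 and Aif1) and none rose, while 2.13% of all tested genes fell and 0.668% rose. Fcgr4 was the member that also passed a 2-fold limit, which 1.21% of all genes did downward. The groups did not overlap for 3 members (Fcgr4, Fcgr1 and Aif1), all lower in Tyk2Δ/Δ, against 14% of all genes. The median log2 change was −0.30 over the 9 members and 0.00400 over all tested genes.

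**Figure D1:**
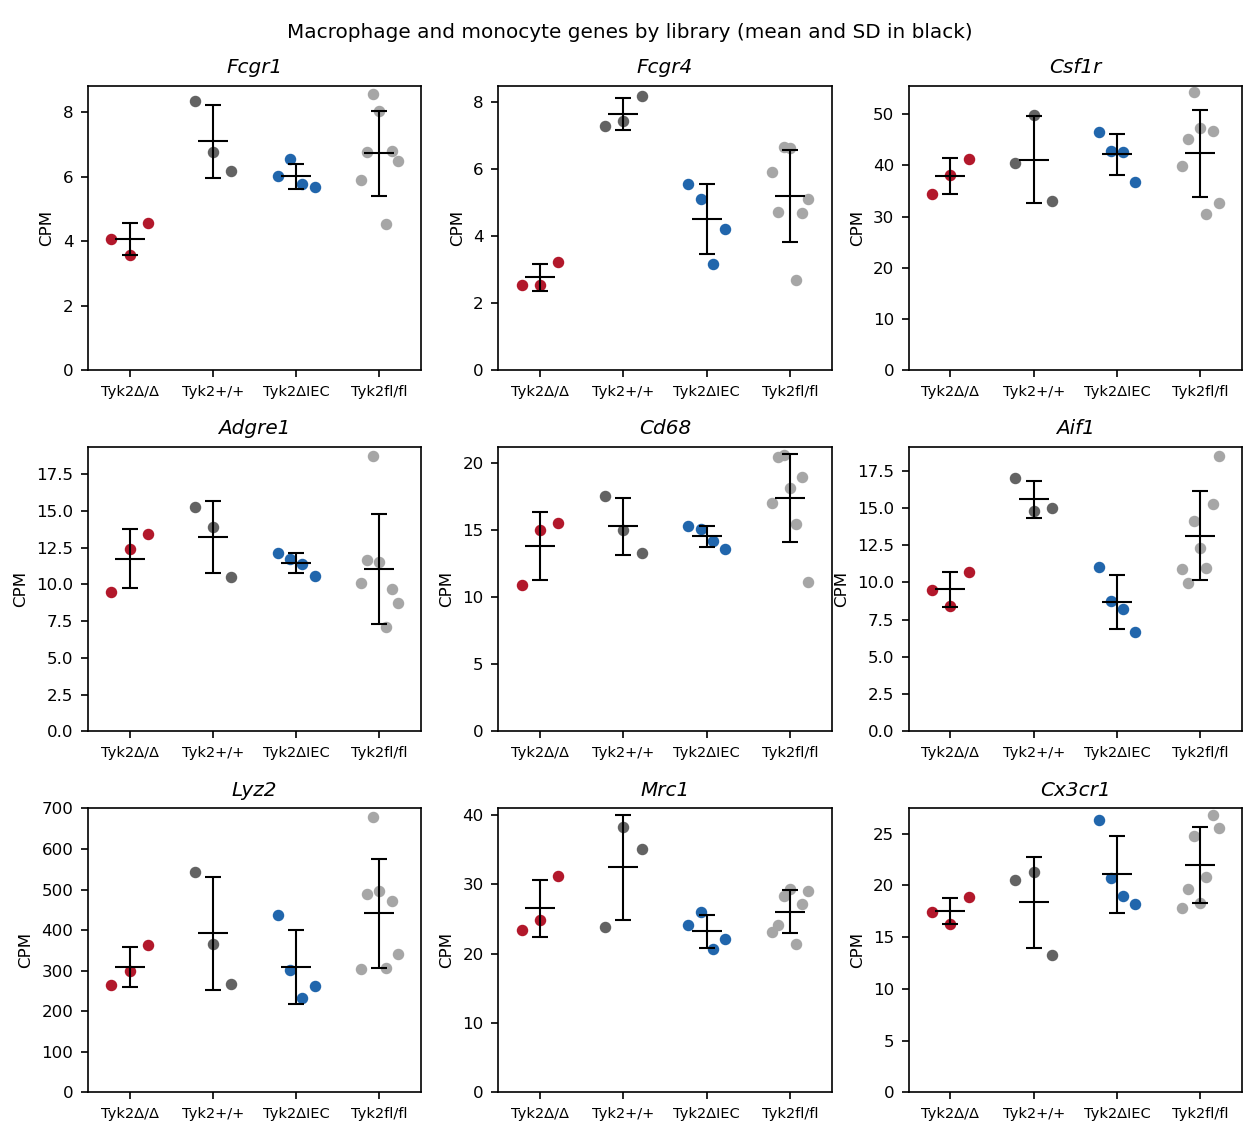
Each panel plots 1 gene, with the level in CPM on the vertical axis from 0 and 1 point per library for Tyk2Δ/Δ (n = 3), Tyk2+/+ (n = 3), Tyk2ΔIEC (n = 4) and Tyk2fl/fl tumors (n = 7). Black bars are mean and SD. Fcgr1, Fcgr4 and Aif1 separate Tyk2Δ/Δ from Tyk2+/+ libraries. Aif1 is also lower in Tyk2ΔIEC than in Tyk2fl/fl tumors, with overlap between these groups. Csf1r, Adgre1 and Cx3cr1 overlap in all groups.

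In Tyk2ΔIEC tumors, whose macrophages have an intact Tyk2 locus, neither Fc receptor gene changed beyond the spread. Fcgr4 had 5.55, 5.11, 3.18 and 4.22 CPM in Tyk2ΔIEC libraries, against a lowest value of 2.70, a median of 5.10 and a highest value of 6.64 CPM in the 7 Tyk2fl/fl libraries. All Tyk2ΔIEC values lay within the Tyk2fl/fl range, and the log2 fold change was −0.20 ± 0.23 (SE; edgeR adjusted p = 0.576). Fcgr1 had 6.03, 6.54, 5.78 and 5.69 CPM in Tyk2ΔIEC libraries, against a lowest value of 4.55, a median of 6.77 and a highest value of 8.56 CPM in Tyk2fl/fl libraries. It too lay within the range of its controls, with a log2 fold change of −0.16 ± 0.16 (SE; edgeR adjusted p = 0.511).

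Aif1 was the member that fell after epithelial deletion. It had 11.0, 8.74, 8.23 and 6.71 CPM in Tyk2ΔIEC libraries, against a lowest value of 9.98, a median of 12.3 and a highest value of 18.5 CPM in Tyk2fl/fl libraries. Tyk2ΔIEC replicate 1 overlapped the controls and the other 3 were below all of them. The log2 fold change was −0.60 ± 0.18 (SE; edgeR adjusted p = 0.0391). The call was lost without Tyk2ΔIEC replicate 2 (adjusted p = 0.0876), 3 (0.0999) or 4 (0.105), without Tyk2fl/fl replicate 3 (0.0551), 4 (0.0514) or 6 (0.0621), and with limma voom (0.0713). Without Tyk2fl/fl replicates 1 to 3 together it held, with a log2 fold change of −0.73 (adjusted p = 0.0285).

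Lyz2, the most abundant member, had 232 to 439 CPM in Tyk2ΔIEC and 304 to 678 CPM in Tyk2fl/fl tumors, a log2 fold change of −0.52 ± 0.23 (SE; edgeR adjusted p = 0.133). Cd68 had 13.6 to 15.3 CPM in Tyk2ΔIEC and 11.1 to 20.6 CPM in Tyk2fl/fl tumors, a log2 fold change of −0.26 ± 0.15 (SE; adjusted p = 0.232), and passed the threshold only when Tyk2fl/fl replicate 7, its lowest control, was left out (−0.34, adjusted p = 0.0258). Csf1r (−0.01 ± 0.14), Adgre1 (0.05 ± 0.21), Mrc1 (−0.17 ± 0.10) and Cx3cr1 (−0.06 ± 0.14) had edgeR adjusted p-values of 0.275 to 0.985. In these 4 genes the Tyk2ΔIEC libraries overlapped their controls.

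Of the 9 tested members, 1 fell in Tyk2ΔIEC tumors and none rose, while 9.71% of 17668 tested genes fell and 10.2% rose. In no member were all Tyk2ΔIEC libraries below all Tyk2fl/fl libraries, against 7.81% of all genes. The member median was −0.17 on the log2 scale and that of all genes −0.0031.

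**Figure D2:**
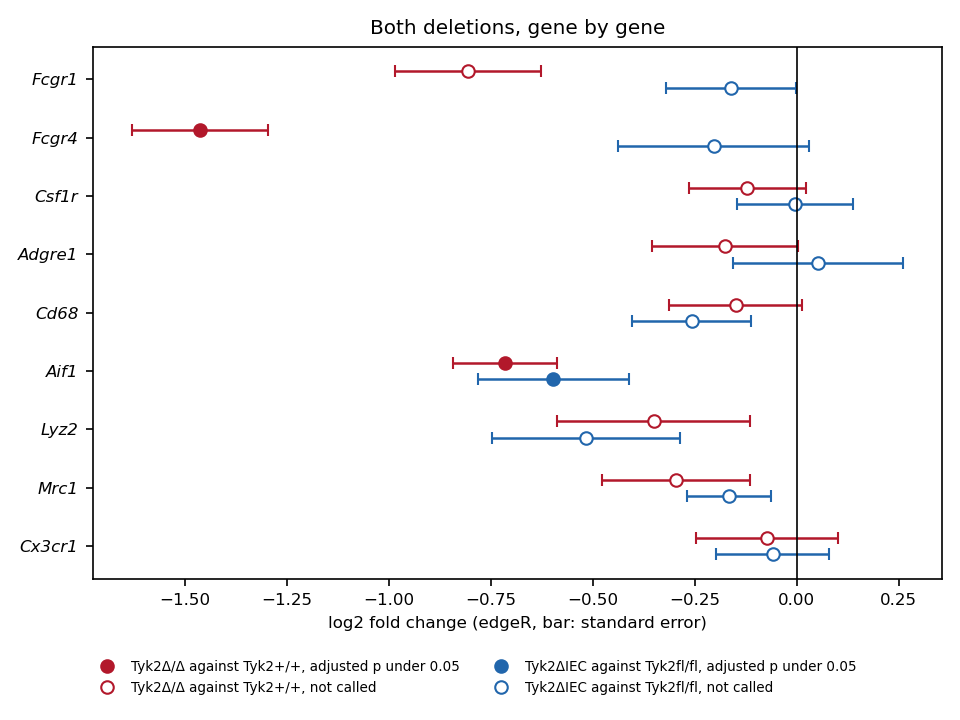
The horizontal axis gives the log2 fold change of each of the 9 tested genes for Tyk2Δ/Δ against Tyk2+/+ tumors (red) and for Tyk2ΔIEC against Tyk2fl/fl tumors (blue), with bars of 1 standard error and filled points for an edgeR adjusted p under 0.05. Fcgr4 lies at −1.46 in red and −0.20 in blue, and Fcgr1 at −0.81 in red and −0.16 in blue. The points of Aif1 lie closer to each other, at −0.72 and −0.60. The difference between both comparisons was called for Fcgr4 and not for Fcgr1 or Aif1.

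The difference between both deletions was then tested directly, as the change in Tyk2ΔIEC minus the change in Tyk2Δ/Δ tumors, in a fit of all 17 libraries. Fcgr4 differed by 1.26 ± 0.34 on the log2 scale (SE; edgeR adjusted p = 0.0337 over 17252 genes), and the value was 1.36 (adjusted p = 0.0303) without Tyk2fl/fl replicates 1 to 3. This call was close to the threshold. It was lost without Tyk2Δ/Δ replicate 1 or 2, Tyk2+/+ replicate 1, 2 or 3, Tyk2ΔIEC replicate 1, 2 or 4, or Tyk2fl/fl replicate 2, where the difference was 1.13 to 1.27 and the adjusted p 0.0502 to 0.0971. It was also lost with limma voom (adjusted p = 0.0644) and without the low-count filter (0.0534). Fcgr1 differed by 0.64 ± 0.25 (SE; adjusted p = 0.126). Aif1 differed by 0.11 ± 0.27 (adjusted p = 0.845), and the differences of the other lineage genes lay between −0.17 and 0.22, all with an adjusted p of at least 0.736. Thus 1 member of 9 was called, against 7.96% of all genes.

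The 2 control groups were compared as well, Tyk2fl/fl against Tyk2+/+, where genotype and experiment cannot be told apart. No member of 9 was called by edgeR, against 12.9% of all genes, and none by DESeq2 or limma voom, while 2 had an unadjusted p under 0.05. Those were Fcgr4 (−0.55 ± 0.22, adjusted p = 0.104), whose 7 Tyk2fl/fl values were all below the 3 Tyk2+/+ values, and Mrc1 (−0.32 ± 0.14, adjusted p = 0.136). Mrc1 passed without Tyk2+/+ replicate 1 (−0.48, adjusted p = 0.0332). Across the 4 genotypes the mean level of Fcgr4 was 2.77 ± 0.41 CPM in Tyk2Δ/Δ, 4.51 ± 1.05 CPM in Tyk2ΔIEC, 5.20 ± 1.38 CPM in Tyk2fl/fl and 7.64 ± 0.48 CPM in Tyk2+/+ tumors (SD; n = 3, 4, 7 and 3). In that order Tyk2ΔIEC and Tyk2fl/fl were not distinguishable, and the lowest Tyk2ΔIEC and Tyk2fl/fl values reached the Tyk2Δ/Δ range. Mean Fcgr1 was 4.07 ± 0.49 CPM in Tyk2Δ/Δ, 6.01 ± 0.38 CPM in Tyk2ΔIEC, 6.73 ± 1.32 CPM in Tyk2fl/fl and 7.09 ± 1.12 CPM in Tyk2+/+ tumors (SD), and Tyk2ΔIEC, Tyk2fl/fl and Tyk2+/+ overlapped.

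To set the Fc receptors against the lineage within each library, the mean log2 CPM of the 8 lineage genes was subtracted from the log2 CPM of Fcgr1 and Fcgr4. For Fcgr4 this relative level was −2.21, −2.26 and −2.09 in Tyk2Δ/Δ libraries, against −1.10, −1.06 and −0.81 in Tyk2+/+ libraries. The difference of the means was −1.19, with SDs of 0.09 in Tyk2Δ/Δ and 0.16 in Tyk2+/+. For Fcgr1 the relative level was −1.55, −1.77 and −1.60 in Tyk2Δ/Δ libraries, against −0.91, −1.19 and −1.22 in Tyk2+/+ libraries, a difference of −0.53. For both genes all Tyk2Δ/Δ libraries were below all Tyk2+/+ libraries, so both were lower relative to the lineage genes.

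In the epithelial deletion the relative levels overlapped. For Fcgr4 they were −1.53, −1.43, −1.87 and −1.51 in Tyk2ΔIEC libraries, against −2.16 to −1.10 with a median of −1.48 in Tyk2fl/fl libraries. For Fcgr1 they were −1.41, −1.07, −1.03 and −1.08 in Tyk2ΔIEC libraries, against −1.42 to −1.10 with a median of −1.12 in Tyk2fl/fl libraries. The differences of the means, 0.01 for Fcgr4 and 0.05 for Fcgr1, were smaller than the SDs within the groups, which for Fcgr4 were 0.20 in Tyk2ΔIEC and 0.35 in Tyk2fl/fl and for Fcgr1 were 0.18 in Tyk2ΔIEC and 0.13 in Tyk2fl/fl. Without the barely detected Cd163, an alternative chosen after seeing the data, the difference of Fcgr4 was −1.20 in Tyk2Δ/Δ and 0.02 in Tyk2ΔIEC tumors, and that of Fcgr1 was −0.54 in Tyk2Δ/Δ and 0.07 in Tyk2ΔIEC tumors. The mean log2 CPM of the 7 remaining lineage genes was 4.71 ± 0.17 in Tyk2Δ/Δ, 4.95 ± 0.20 in Tyk2+/+, 4.72 ± 0.18 in Tyk2ΔIEC and 4.92 ± 0.22 in Tyk2fl/fl tumors (SD), with overlap between each deletion and its control. No test was made of these relative levels. In whole tumors, fewer macrophages and less RNA of a gene per macrophage cannot be told apart for any single gene.

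**Figure D3:**
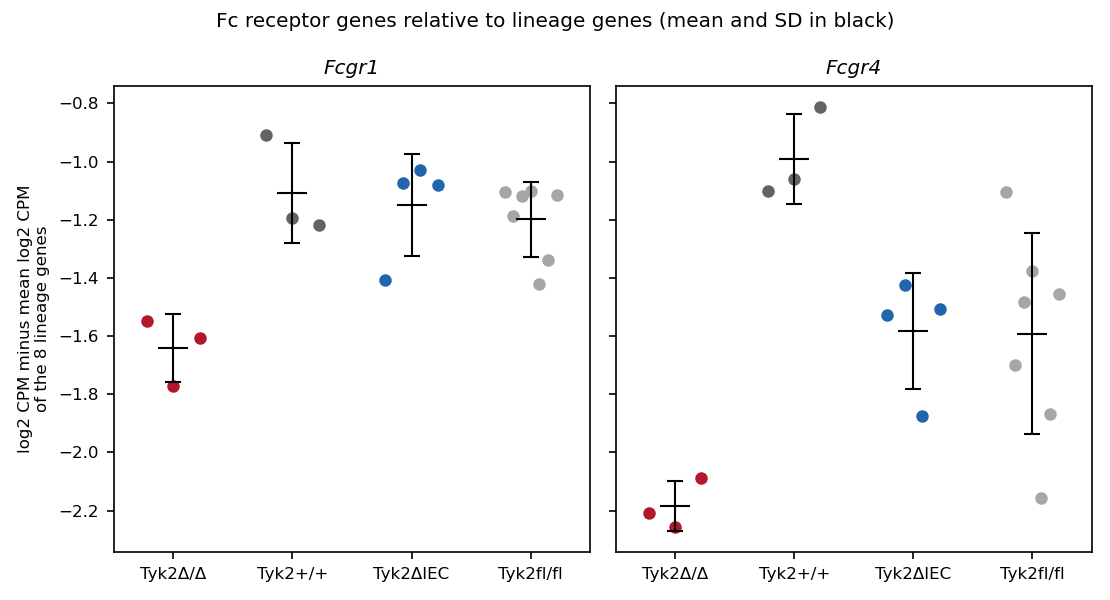
The vertical axis gives the log2 CPM of Fcgr1 (left) and Fcgr4 (right) minus the mean log2 CPM of the 8 lineage genes, with 1 point per library and the mean and SD in black for Tyk2Δ/Δ, Tyk2+/+, Tyk2ΔIEC and Tyk2fl/fl tumors. The Tyk2Δ/Δ points lie between −1.77 and −1.55 for Fcgr1 and between −2.26 and −2.09 for Fcgr4, below all Tyk2+/+ points, while Tyk2ΔIEC and Tyk2fl/fl points overlap.

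Values after ± in the following are SD for levels in CPM and SE for log2 fold changes. The 3 other genes of the Fc gamma receptor family had negative log2 fold changes in both deletions. Fcgr3, an activating receptor, fell in Tyk2Δ/Δ tumors (18.1 ± 3.2 against 28.4 ± 2.2 CPM in Tyk2+/+, log2 fold change −0.66 ± 0.13, edgeR adjusted p = 0.0461). It also fell in Tyk2ΔIEC tumors (20.3 ± 2.5 against 29.4 ± 6.1 CPM in Tyk2fl/fl, −0.53 ± 0.15, adjusted p = 0.0305). Fcgr2b, the inhibitory receptor, had 14.4 to 20.1 CPM in Tyk2Δ/Δ and 24.4 to 24.8 CPM in Tyk2+/+ tumors without passing the test (−0.54 ± 0.12, adjusted p = 0.0633). Fcgr2b did fall in Tyk2ΔIEC tumors, with 16.1 to 20.9 CPM against 21.3 to 29.8 CPM in Tyk2fl/fl (−0.50 ± 0.10, adjusted p = 0.00677), where the groups did not overlap. Fcer1g, the common signaling chain of the activating receptors, had a log2 fold change of −0.18 ± 0.12 in Tyk2Δ/Δ (adjusted p = 0.426) and fell by 0.61 ± 0.14 in Tyk2ΔIEC tumors (adjusted p = 0.0126).
In the family of 5, 2 genes fell in Tyk2Δ/Δ and 3 in Tyk2ΔIEC tumors, and Fcgr3 was the gene called in both. Of all tested genes, 2.13% fell in Tyk2Δ/Δ and 9.71% in Tyk2ΔIEC tumors. The difference between both deletions passed for Fcgr4 alone of the 5 genes, against 7.96% of all genes. It was 0.04 ± 0.17 for Fcgr2b (adjusted p = 0.922), 0.12 ± 0.24 for Fcgr3 (0.817) and −0.44 ± 0.21 for Fcer1g (0.222). DESeq2 called 4 lower in Tyk2Δ/Δ tumors, in place of 2. Fcgr2b and Fcgr3 share 2.7% (Fcgr2b) and 5.42% (Fcgr3) of their words of 75 bases with other genes, mostly with each other, while Fcgr1, Fcgr4 and Fcer1g share none with another gene.

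Of 20 other macrophage genes 16 were tested in Tyk2Δ/Δ tumors, and 3 fell and none rose (median −0.37), while 2.13% of all tested genes fell. DESeq2 called 4 lower. The 3 genes were Msr1, a scavenger receptor (10.9 ± 1.4 CPM in Tyk2Δ/Δ, 19.5 ± 1.5 CPM in Tyk2+/+, edgeR adjusted p = 0.0148), Ctss, the protease cathepsin S (155 ± 5 CPM in Tyk2Δ/Δ, 204 ± 10 CPM in Tyk2+/+, adjusted p = 0.0205), and Lyve1, a hyaluronan receptor also made by lymphatic vessels (5.57 ± 1.10 CPM in Tyk2Δ/Δ, 11.1 ± 2.3 CPM in Tyk2+/+, adjusted p = 0.0465). In Tyk2ΔIEC tumors 6 of 18 tested genes fell and none rose (median −0.29), while 9.71% of all tested genes fell, and DESeq2 called 8 lower. The 6 genes included Trem2, a lipid-sensing receptor (4.79 ± 0.51 CPM in Tyk2ΔIEC, 7.75 ± 1.34 CPM in Tyk2fl/fl, adjusted p = 0.00918), its signaling partner Tyrobp (15.9 ± 1.7 CPM in Tyk2ΔIEC, 22.2 ± 3.4 CPM in Tyk2fl/fl, adjusted p = 0.0158) and the complement gene C1qc (39.3 ± 6.0 CPM in Tyk2ΔIEC, 55.4 ± 9.5 CPM in Tyk2fl/fl, adjusted p = 0.0269). Without Tyk2fl/fl replicates 1 to 3, 3 genes of the list fell and 1 rose. The difference between both deletions was called by edgeR in none of 17 tested genes of the list, against 7.96% of all genes. For this difference 4 genes had an unadjusted p under 0.05, and DESeq2 called 1 higher and 1 lower in Tyk2ΔIEC. The named genes therefore do not set the deletions apart.

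Among 10 monocyte genes 2 fell in Tyk2Δ/Δ tumors (median −0.92), Nr4a1, a transcription factor of patrolling monocytes that many cell types induce (25.3 ± 2.9 CPM in Tyk2Δ/Δ, 44.1 ± 5.0 CPM in Tyk2+/+, edgeR adjusted p = 0.0141), and Spn (CD43), shared with T cells (2.33 ± 0.39 CPM in Tyk2Δ/Δ, 4.78 ± 0.85 CPM in Tyk2+/+, adjusted p = 0.0465). Plac8 had 417 ± 45 CPM in Tyk2Δ/Δ and 609 ± 83 CPM in Tyk2+/+ tumors (adjusted p = 0.0516). This was far above Ccr2 of the same list, with 6.64 ± 1.13 CPM in Tyk2Δ/Δ and 8.76 ± 1.62 CPM in Tyk2+/+ tumors. Which cells of these tumors express Plac8 was not tested. DESeq2 called 5 of the 10 lower and 1 higher in Tyk2Δ/Δ tumors. By edgeR, 2.13% of all tested genes fell in Tyk2Δ/Δ and 9.71% in Tyk2ΔIEC tumors. The difference between both deletions was called in 1 of the 10, Spn (0.99 ± 0.27, edgeR adjusted p = 0.0349), against 7.96% of all genes. In Tyk2ΔIEC tumors none of the 10 was called by edgeR, DESeq2 or limma voom, with 2 at an unadjusted p under 0.05 and a median of −0.27. Without Tyk2fl/fl replicates 1 to 3, edgeR called 1 lower. The smallest edgeR adjusted p-values there were 0.141 for Treml4, 0.146 for Ccr2 and 0.151 for Ace.

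Of 12 growth factors and transcription factors of the lineage, 1 fell in Tyk2Δ/Δ and 2 fell in Tyk2ΔIEC tumors (medians −0.11 and −0.30). Of all tested genes, 2.13% fell in Tyk2Δ/Δ and 9.71% in Tyk2ΔIEC tumors. Spi1 fell in Tyk2Δ/Δ tumors, with 7.72 to 9.07 CPM against 11.7 to 13.9 CPM in Tyk2+/+ (log2 fold change −0.64 ± 0.13, edgeR adjusted p = 0.0419). In Tyk2ΔIEC tumors Spi1 had a log2 fold change of −0.37 ± 0.14 (adjusted p = 0.0726). Its difference between both deletions was not called (0.26 ± 0.21, adjusted p = 0.483). Cebpb, which myeloid and epithelial cells both use, fell in Tyk2ΔIEC tumors to 29.8 ± 3.4 CPM, against 59.1 ± 11.0 CPM in Tyk2fl/fl (−0.99 ± 0.14, adjusted p = 0.00138). Cebpa fell there as well (34.3 ± 2.9 CPM in Tyk2ΔIEC, 44.2 ± 4.4 CPM in Tyk2fl/fl, adjusted p = 0.0114), and Maf was at an adjusted p of 0.0548. In Tyk2Δ/Δ tumors Cebpb (−0.25 ± 0.08, adjusted p = 0.129) and Runx1 (0.20 ± 0.07, adjusted p = 0.13) were not called. DESeq2 called 5 of the 12 lower in Tyk2ΔIEC tumors, in place of 2. The difference between both deletions was called by edgeR in 1 of the 12, Cebpb (−0.74 ± 0.20, adjusted p = 0.0344), against 7.96% of all genes. DESeq2 called this difference in 2 genes and limma voom in none.

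Genes that attract monocytes fell in part. Of 6, 2 fell in each deletion and none rose (medians −0.64 in Tyk2Δ/Δ and −0.36 in Tyk2ΔIEC). The share of all tested genes that fell was 2.13% in Tyk2Δ/Δ and 9.71% in Tyk2ΔIEC tumors. The chemokine Ccl7 fell in both, to 3.82 ± 0.34 CPM in Tyk2Δ/Δ against 8.99 ± 1.47 CPM in Tyk2+/+ tumors (edgeR adjusted p = 0.0116), and to 6.18 ± 1.33 CPM in Tyk2ΔIEC against 13.99 ± 4.83 CPM in Tyk2fl/fl tumors (adjusted p = 0.014). Ccl2 fell in Tyk2ΔIEC tumors (6.47 ± 2.14 CPM, against 10.2 ± 2.0 CPM in Tyk2fl/fl, adjusted p = 0.0496). Without Tyk2fl/fl replicates 1 to 3 none of the 6 was called in Tyk2ΔIEC tumors. Ccl8 was not called in Tyk2Δ/Δ (adjusted p = 0.201) or Tyk2ΔIEC tumors (0.296).

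Alternative activation showed no call. Of 6 genes 4 were tested, none was called in either deletion by edgeR, DESeq2 or limma voom, and none had an unadjusted p under 0.05 (medians 0.02 in Tyk2Δ/Δ and −0.35 in Tyk2ΔIEC). The smallest edgeR adjusted p-values were 0.385 for Stab1, 0.639 for Mgl2 and 0.695 for Arg1 in Tyk2Δ/Δ tumors, and 0.18 for Clec10a, 0.22 for Mgl2 and 0.727 for Stab1 in Tyk2ΔIEC tumors.

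Genes of macrophage activation by interferon gamma, many of which other cell types induce as well, moved in opposite directions in the deletions. In Tyk2Δ/Δ tumors 7 of 10 tested genes fell and none rose (median −1.59), while 2.13% of all tested genes fell. The chemokine gene Cxcl9 fell to 3.60 ± 1.14 CPM, against 42.9 ± 14.7 CPM in Tyk2+/+ (edgeR adjusted p = 0.00177), and Cd74, the invariant chain of antigen presentation, fell to 177 ± 24 CPM, against 631 ± 135 CPM in Tyk2+/+ (adjusted p = 0.0019).
In Tyk2ΔIEC tumors 5 of 10 rose and none fell (median 0.62), while 10.2% of all tested genes rose. Gbp2, a guanylate-binding protein, rose to 154 ± 30 CPM, against 50.9 ± 32.7 CPM in Tyk2fl/fl (adjusted p = 0.0126). Ciita, the regulator of MHC class II genes, rose to 13.6 ± 3.3 CPM, against 5.82 ± 2.50 CPM in Tyk2fl/fl (adjusted p = 0.0139), and Nos2, inducible nitric oxide synthase, to 107 ± 25 CPM, against 71.2 ± 13.1 CPM in Tyk2fl/fl (adjusted p = 0.0221). The Tyk2+/+ controls had 180 ± 76 CPM of Gbp2, 16.9 ± 4.8 CPM of Ciita and 105 ± 39 CPM of Nos2, and the Tyk2ΔIEC values overlapped these. The rise was thus relative to Tyk2fl/fl, and the control groups themselves differed in these levels. Between the control groups, genotype and experiment cannot be told apart. The difference between both deletions was called in 8 of the 10 genes, all higher in Tyk2ΔIEC, against 7.96% of all genes called in either direction. In Tyk2Δ/Δ tumors Fcgr1 and Fcgr4 shared the direction of these genes, but so did all 9 tested members. Of all tested genes, 49.3% had a negative log2 fold change there, so direction alone does not set the pair apart from the lineage genes. In Tyk2ΔIEC tumors the log2 fold changes of Fcgr1 and Fcgr4, −0.16 and −0.20, lay beside a list median of 0.62. Without Tyk2fl/fl replicates 1 to 3, 3 genes rose in place of 5.

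**Figure D4:**
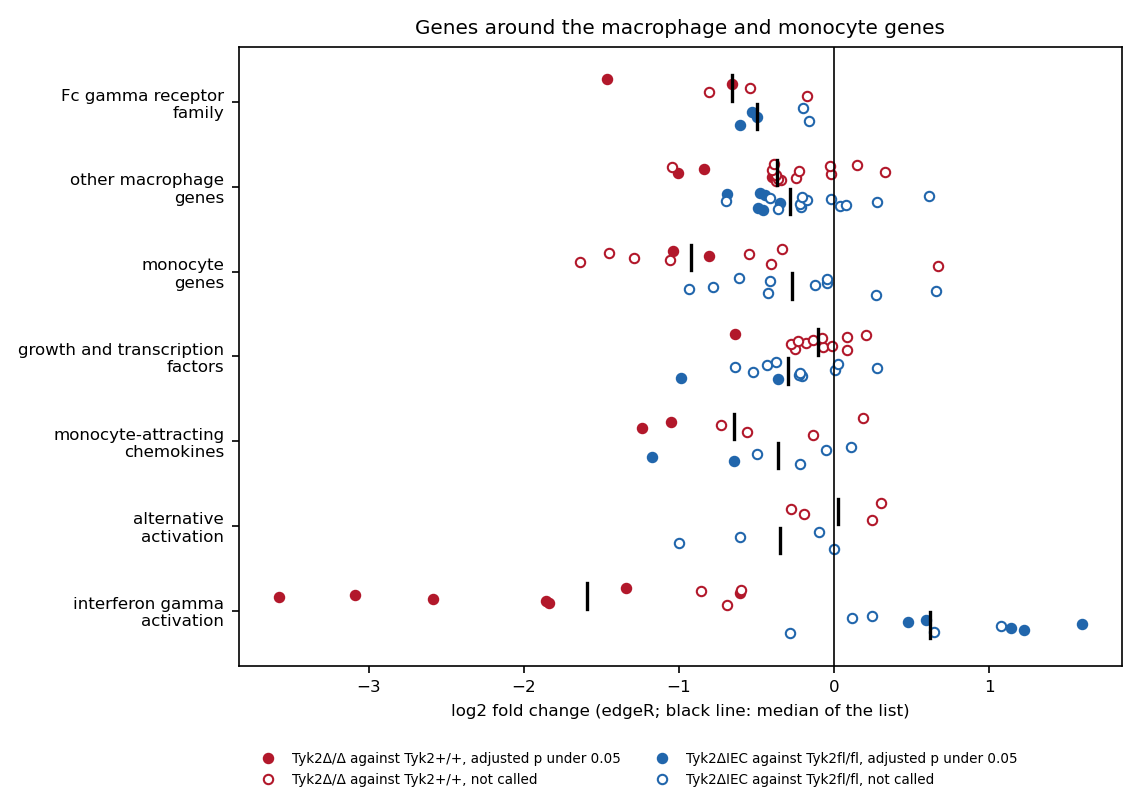
The horizontal axis gives the log2 fold change of every tested gene in 7 lists around the macrophage and monocyte genes, for Tyk2Δ/Δ against Tyk2+/+ tumors (red) and Tyk2ΔIEC against Tyk2fl/fl tumors (blue). Filled points have an edgeR adjusted p under 0.05 and black lines are list medians. The medians lie at or below 0.02 in 6 lists for both comparisons, whereas the interferon gamma list lies at −1.59 in red and 0.62 in blue.

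Markers of other leukocytes were set beside these values. The summed level of 5 pan-leukocyte genes was 99.999 to 126 CPM in Tyk2Δ/Δ and 161 to 193 CPM in Tyk2+/+ tumors, and 3 of the 5 fell (Ptprc, Coro1a and Cd53). In Tyk2ΔIEC tumors it was 110 to 150 CPM, against 115 to 174 CPM in Tyk2fl/fl, and 2 of the 5 fell (Coro1a and Laptm5). T and NK cell markers, the cells that make interferon gamma, summed to 5.26 to 7.80 CPM in Tyk2Δ/Δ and 14.8 to 22.3 CPM in Tyk2+/+ tumors, with 4 of 6 tested genes lower. They summed to 7.71 to 14.6 CPM in Tyk2ΔIEC and 7.10 to 15.5 CPM in Tyk2fl/fl tumors, with 1 of 7 tested genes higher (Gzma). Neutrophil markers summed to 57.9 to 84.3 CPM in Tyk2Δ/Δ and 115 to 142 CPM in Tyk2+/+ tumors, with 2 of 5 lower, and to 55.1 to 143 CPM in Tyk2ΔIEC and 58.3 to 282 CPM in Tyk2fl/fl tumors, with none called by edgeR, DESeq2 or limma voom and none at an unadjusted p under 0.05. By edgeR, 2.13% of all tested genes fell in Tyk2Δ/Δ, and 9.71% fell and 10.2% rose in Tyk2ΔIEC tumors. The difference between both deletions was called in 1 of 5 pan-leukocyte genes, Ptprc (1.15 ± 0.24, edgeR adjusted p = 0.00819). It was called in 4 of 8 T and NK cell genes (Cd8a, Nkg7, Gzma and Prf1) and in none of 5 neutrophil genes, against 7.96% of all genes. The called genes were all higher in Tyk2ΔIEC. No marker in these lists was at 0 in a whole group, and the part of these cells in the members' values was not tested.

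Finally, the genes with the most similar profiles over the 17 libraries were looked up among 17252 genes, by the root-mean-square difference of mean-centered log2 CPM. For Fcgr1, whose own values deviated from their mean by 0.337, the nearest included Nol8 (0.173), Pld4 (0.173), Hcls1 (0.181) and Spi1 (0.183). For Fcgr4, with a larger deviation of 0.534, they were the pseudogene H2-T-ps (0.255), Ptprc (0.257), Zfp960 (0.272), Rasgrp1 (0.272) and Msr1 (0.275). For the mean of the 8 lineage genes, with a deviation of 0.200, they were Unc93b1 (0.0959), Ttc7b (0.0970), Nckap1l (0.110), Laptm5 (0.116) and Dpy19l1 (0.117). Several of these, such as the CD45 gene Ptprc, are expressed across leukocytes, and none of the genes named was shared between the 3 profiles.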

How the data were processed

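RNA of AOM/DSS-induced colon tumors was sequenced as 17 libraries (Tyk2Δ/Δ 3, Tyk2+/+ 3, Tyk2ΔIEC 4, Tyk2fl/fl 7). Per the study's methods, poly(A) RNA was prepared with a directional kit and read in single-end mode, and the authors aligned reads with STAR 2.6.1a in 2-pass mode and counted reads per gene with STAR. The submitters' processing notes name GRCm38. The deposited values are raw counts per gene. Whether counting used strand is not given in the sources used here, so a gene and its antisense partner cannot be told apart with certainty.

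Genes were matched to Gencode M21 and RefSeq names on GRCm38 by identifier (55240 of 55421 rows), and lengths, positions and shared words of 75 bases were taken from there. Counts were tested with edgeR 4.0.16 (R 4.3.3; filterByExpr with a minimum count of 10 and a minimum total of 15, TMM factors, quasi-likelihood F test, Benjamini-Hochberg). Called means an adjusted p under 0.05. Each deletion was fitted with its own control, and the difference and the control comparison in 1 fit of 17 libraries. Levels are CPM with TMM factors over all libraries, and log2 CPM used a prior count of 2. Libraries held 19922606 to 21707373 (Tyk2Δ/Δ), 19789347 to 21318077 (Tyk2+/+), 19129696 to 20334948 (Tyk2ΔIEC) and 29777763 to 35427965 counts (Tyk2fl/fl). The 17 single-library files held the same values as the joint table, and no libraries were identical.

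The members and lists were chosen with earlier results of these data known. All members and all Fc gamma receptor genes are named, with up to 3 genes of the smallest adjusted p from each other list in each deletion and the 5 nearest profiles. Some genes that this rule would name are not reported here. Further marker genes were named after their values were seen. Alternatives were DESeq2 1.42.0, limma voom 3.58.1, RLE size factors, no filter or a minimum count of 50, all libraries in 1 fit, a replicate block, leaving out libraries, a 2-fold limit, and other lineage levels. The lineage level without Cd163, and the counts of list genes with other tools or without Tyk2fl/fl replicates 1 to 3, were chosen after seeing the data. The code was tested on simulated data. Python 3.11.15 and matplotlib 3.10.9 drew the figures.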

Additional observations from a re-analysis of the deposited data

Results flagged for a closer look

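The difference between both deletions passed the test for Fcgr4, with a change in Tyk2ΔIEC minus the change in Tyk2Δ/Δ tumors of 1.26 on the log2 scale (edgeR adjusted p = 0.0337).

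In 22 combinations of a gene or relative level with the Tyk2ΔIEC or Tyk2fl/fl group, 2 libraries stood apart by Dixon's criterion, which chance alone exceeds in about 1 group in 20. Fcgr4 in Tyk2fl/fl replicate 5 had a log2 CPM of 1.47, against 2.25 to 2.75 in the 6 other Tyk2fl/fl libraries. Without it the log2 fold change of Fcgr4 in Tyk2ΔIEC tumors was −0.33 (adjusted p = 0.225), in place of −0.20, and the difference between both deletions was 1.14 (adjusted p = 0.0165). Fcgr1 relative to the lineage genes was −1.41 in Tyk2ΔIEC replicate 1, against −1.08 to −1.03 in the 3 other Tyk2ΔIEC libraries. Without it the difference of the means between Tyk2ΔIEC and Tyk2fl/fl was 0.14, in place of 0.05.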

How the results depend on the processing

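Fcgr4 stayed lower and called in Tyk2Δ/Δ tumors under all 13 alternatives (log2 fold change −1.59 to −1.40, adjusted p at most 0.033). Of 36 pairs of gene and comparison, 30 kept their call in every alternative, and no called value changed direction. The number of members called in Tyk2Δ/Δ tumors was 2, and 1 with the replicate block or the 2-fold limit, 3 with DESeq2 or without the filter, and 1 to 2 when 1 library was left out. In Tyk2ΔIEC tumors it was 1, and 0 with limma voom, the replicate block or the 2-fold limit, and 0 to 2 when 1 library was left out. For the difference between both deletions it was 1, and 0 with limma voom or without the filter, and 0 to 1 when 1 library was left out. For Tyk2fl/fl against Tyk2+/+ it was 0, and 0 to 1 when 1 library was left out. The cause of these changes was not tested. To look for pairing, each gene's group mean was subtracted from its log2 CPM, and these deviations were correlated over genes between deletion and control libraries. Deviations of same-numbered libraries correlated at −0.11 to −0.01 in Tyk2Δ/Δ and Tyk2+/+ and at −0.37 to 0.07 in Tyk2ΔIEC and Tyk2fl/fl. Those of differently numbered libraries correlated at −0.10 to 0.18 in the first and −0.24 to 0.35 in the second comparison. With so few libraries, these values cannot decide whether the numbers of the labels pair the libraries. With the replicate block Aif1 was at an adjusted p of 0.0677 in Tyk2Δ/Δ and 0.153 in Tyk2ΔIEC tumors.

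Relative to the lineage genes, Fcgr4 kept a difference of −1.34 to −1.10 and Fcgr1 of −0.69 to −0.43 in Tyk2Δ/Δ tumors under every alternative. In Tyk2ΔIEC tumors both differences lay near 0 and took either sign. Against Csf1r alone Fcgr1 was at −0.15 and Fcgr4 at −0.19. The low counts of Fcgr1 and Fcgr4 (51 to 286 per library) and the small number of libraries, 3 each for Tyk2Δ/Δ and Tyk2+/+ and 4 for Tyk2ΔIEC against 7 for Tyk2fl/fl, limit the precision.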

Other observations

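Markers of further cell types around the macrophages were summed in the same way. Smooth muscle genes summed to 103 to 168 CPM in Tyk2Δ/Δ and 229 to 413 CPM in Tyk2+/+ tumors, with 5 of 6 lower (6 with DESeq2, 3 with limma voom). They summed to 144 to 1286 CPM in Tyk2ΔIEC and 137 to 673 CPM in Tyk2fl/fl tumors, with none called by edgeR, DESeq2 or limma voom and none at an unadjusted p under 0.05. Fibroblast genes were not called in Tyk2Δ/Δ tumors by any of these tools (1051 to 1890 CPM, against 1123 to 1531 CPM in Tyk2+/+, with 2 at an unadjusted p under 0.05). In Tyk2ΔIEC tumors 4 of 6 fibroblast genes fell (Col1a1, Col1a2, Dcn and Lum), with 1236 to 1554 CPM against 1281 to 2113 CPM in Tyk2fl/fl. By edgeR, 2.13% of all tested genes fell in Tyk2Δ/Δ and 9.71% in Tyk2ΔIEC tumors.

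B and plasma cell genes summed to 65.4 to 199 CPM in Tyk2Δ/Δ and 250 to 273 CPM in Tyk2+/+ tumors, and edgeR called none of the 3 tested, all at an unadjusted p under 0.05, while DESeq2 called 2 lower and limma voom none. In Tyk2ΔIEC tumors they summed to 6.02 to 159 CPM, against 21.1 to 136 CPM in Tyk2fl/fl. Dendritic cell genes (17.9 to 21.0 CPM in Tyk2Δ/Δ, 22.05 to 27.6 CPM in Tyk2+/+), mast cell genes (44.5 to 65.6 CPM in Tyk2Δ/Δ, 51.4 to 121 CPM in Tyk2+/+), endothelial genes (48.9 to 81.7 CPM in Tyk2Δ/Δ, 48.8 to 68.9 CPM in Tyk2+/+) and the epithelial genes had no call in either deletion by edgeR, DESeq2 or limma voom. Without Tyk2fl/fl replicates 1 to 3, edgeR called 1 epithelial gene lower in Tyk2ΔIEC tumors. At an unadjusted p under 0.05 there were 3 dendritic, 1 endothelial and 1 epithelial gene in Tyk2Δ/Δ and none of these lists in Tyk2ΔIEC tumors. In Tyk2ΔIEC tumors the sum for dendritic cell genes was 17.5 to 28.0 CPM, against 16.1 to 22.96 CPM in Tyk2fl/fl. That for mast cell genes was 27.0 to 109 CPM in Tyk2ΔIEC and 37.0 to 223 CPM in Tyk2fl/fl, and that for endothelial genes 69.4 to 89.2 CPM in Tyk2ΔIEC and 59.6 to 97.7 CPM in Tyk2fl/fl.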
